A study of Danio rerio with 28 samples.

Results

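The chemokine genes ccl19a.1 (ENSDARG00000058389), ccl35.1 (ENSDARG00000103466) and ccl35.2 (ENSDARG00000070378) were followed in sorted brain cells of adult zebrafish. They are 3 of the 32520 genes of the count table, were taken by name and were found in every library. All fish carried the genotype TgBAC(ccl34b.1:eGFP);Tg(mpeg1:DsRedx), in which a green reporter follows the chemokine gene ccl34b.1 and a red reporter follows the macrophage gene mpeg1. Cells positive for the red reporter were sorted into ccl34b.1+ and ccl34b.1- gates, with 100 cells per library and 1 library per fish and gate.

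The injection experiment used fish aged 6 months, of which 3 were injected with E. coli and 4 with PBS (a buffer), while 2 were controls with no treatment in the labels. A separate set of 5 untreated fish, called wild type in the design text, was aged 4 months. With both gates these make 8 groups and 28 libraries. The site, dose and time of injection are not given in the sources used here. A gate set by a reporter follows the promoter that drives it, so a cell that lost or never switched on the green reporter counts as ccl34b.1-. Age and experiment differ together between untreated and other fish, so levels of the 2 experiments are set side by side and not tested against each other.

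Chemokines are small secreted proteins that steer the movement of leukocytes through receptors on the cell surface. In mammals CCL19 is a ligand of the receptor CCR7, and this pair draws dendritic cells and T cells together in lymphoid tissue; ccl19a.1 is one of the zebrafish genes named after it. The ccl35 genes are CC chemokines of fish with no mammalian gene of the same name.

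The depth of the libraries after E. coli was 3.66 to 4.11 M counts (M, mega) in ccl34b.1+ and 3.34 to 9.69 M in ccl34b.1- libraries. After PBS it was 3.14 to 7.79 M and 2.90 to 9.00 M, in controls 3.57 to 3.60 M and 2.24 to 2.35 M, and in untreated fish 20.4 to 30.4 M and 14.2 to 24.0 M, with ccl34b.1+ libraries first each time. The labels call all cells microglia, the resident macrophages of the brain. The summed level of 9 microglia markers ran from 40248 to 52204 CPM (counts scaled to a common library total) in ccl34b.1+ and from 865 to 2900 CPM in ccl34b.1- libraries of untreated fish. After E. coli it ran from 5234 to 9404 CPM in ccl34b.1+ and from 425 to 1151 CPM in ccl34b.1- libraries, so the sum of microglia markers was low throughout the ccl34b.1- gate. The list holds ccl34b.1, the gene of the sort, and that part of the sum restates the gating. In untreated fish ccl34b.1 averaged 8811 CPM in ccl34b.1+ and 356 CPM in ccl34b.1- libraries. The dendritic cell receptor gene flt3 averaged 0.00701 CPM in ccl34b.1+ and 117 CPM in ccl34b.1- libraries of untreated fish, and BATF3 averaged 0.262 CPM in ccl34b.1+ and 228 CPM in ccl34b.1- libraries. For BATF3 the gates overlapped, at 0 to 1.21 CPM in ccl34b.1+ and 0.0396 to 441 CPM in ccl34b.1- libraries of untreated fish. The summed level of the 7 matched dendritic cell markers overlapped between these gates (1045 to 2848 and 1980 to 2701 CPM), mostly through cd83 at 1647 and 1484 CPM. Of the rest of the list, IRF8 had like means (420 and 404 CPM) and ZBTB46 a higher mean in ccl34b.1+ libraries (7.23 and 2.16 CPM). The mean of irf4b was lower there (0.00701 and 26.4 CPM), and CCR7 was at 0 in both. The same sum overlapped in ccl34b.1+ and ccl34b.1- libraries of PBS fish (786 to 1344 and 1229 to 2507 CPM) and of controls (1340 to 2373 and 2346 to 4243 CPM), and did not overlap after E. coli (285 to 631 and 1021 to 4024 CPM). Of 3 matched endothelial markers only pecam1a stood apart in untreated fish, at 334 CPM in ccl34b.1+ and 16.1 CPM in ccl34b.1- libraries, while kdrl and cdh5 were at or near 0 in both. The part of these cell types in the gate differences below was not tested.

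In every treatment, each of the 3 chemokine genes was lower in all ccl34b.1+ libraries than in any ccl34b.1- library. How many of all genes lacked overlap between the gates was not counted, here or in the treatments below. ccl19a.1 separated the gates by far the largest folds. Its mean in ccl34b.1+ cells was near that of ccl35.2 after E. coli (33.7 and 41.1 CPM) and after PBS (54.7 and 56.4 CPM). In controls (48.2 and 169 CPM) and untreated fish (11.2 and 174 CPM) it was lower than that of ccl35.2. By group mean, ccl19a.1 stood highest in ccl34b.1- cells after E. coli, followed by ccl34b.1- cells of control, PBS and untreated fish, and each of these neighbours overlapped library by library. For ccl35.1 and ccl35.2 the highest mean was that of control ccl34b.1- cells, and the 4 ccl34b.1- groups again formed a run of overlapping neighbours above all ccl34b.1+ groups. These libraries hold bulk RNA, so fewer expressing cells and less RNA per cell cannot be told apart.

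**Figure D1:**
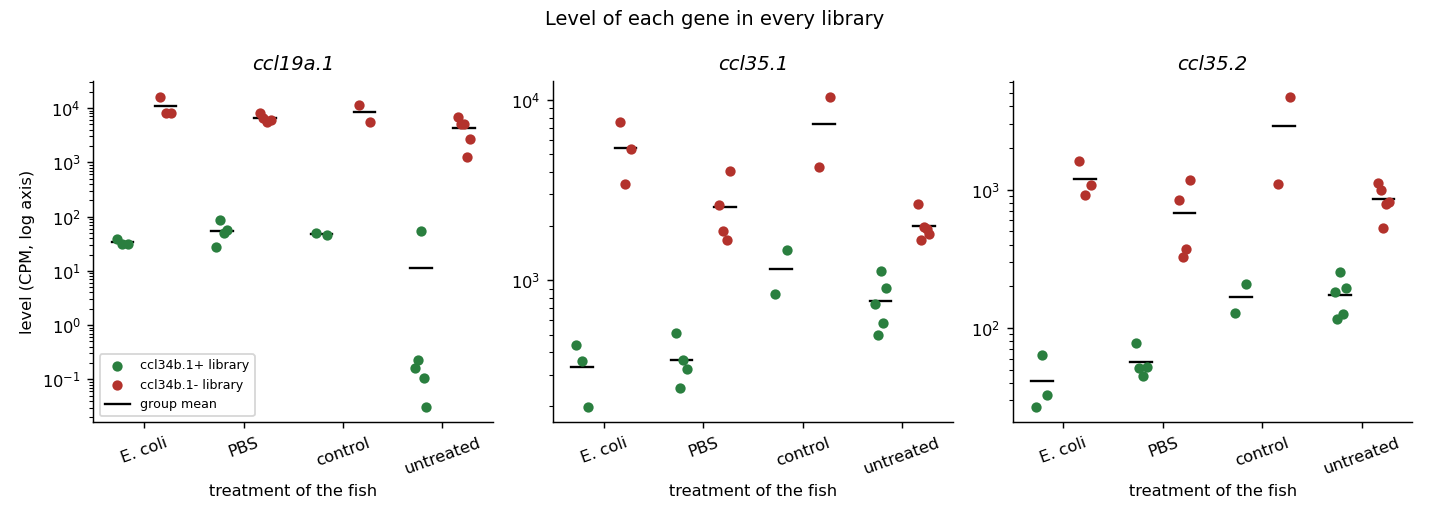
Level of ccl19a.1, ccl35.1 and ccl35.2 in each of the 28 libraries (CPM, log axis) by treatment, with ccl34b.1+ libraries in green on the left of each pair, ccl34b.1- libraries in red, and a bar at each group mean. No green point reaches a red point of the same treatment, and the ccl19a.1 panel shows 1 untreated ccl34b.1+ library at 55.4 CPM above 4 others under 1 CPM.

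The gates were compared first for ccl19a.1, to describe how the 2 mpeg1+ populations differ. After E. coli it had 39.3, 30.8 and 31.1 CPM in ccl34b.1+ libraries 1 to 3, against 16315, 8069 and 8018 CPM in ccl34b.1- libraries 1 to 3. The first ccl34b.1- library was the highest and the gates did not overlap. The fitted level was 329.6-fold lower in ccl34b.1+ cells (log2 fold change -8.36 ± 0.48, SE; 95% interval -9.35 to -7.38; edgeR adjusted p = 8.54e-14, n = 3 and 3), the smallest p of the comparison.

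After PBS ccl19a.1 had 27.4, 85.7, 49.5 and 56.2 CPM in ccl34b.1+ libraries 1 to 4, against 8186, 6659, 5551 and 6043 CPM in ccl34b.1- libraries 1 to 4. The ccl34b.1- libraries were closely grouped here, within 1.47-fold of each other, and the gates did not overlap. The gene was 118-fold lower in ccl34b.1+ cells (log2 fold change -6.88 ± 0.39, edgeR adjusted p = 2.91e-14, n = 4 and 4). In control fish it had 49.96 and 46.4 CPM in the 2 ccl34b.1+ libraries, against 11578 and 5448 CPM in the 2 ccl34b.1- libraries. It was 177-fold lower in ccl34b.1+ cells (log2 fold change -7.47 ± 0.57, edgeR adjusted p = 2.28e-10), the smallest p of that comparison, and the value became -6.82 without control ccl34b.1- library 1. When all 28 libraries shared 1 fit, the same differences did not pass in any of the 3 treatments (log2 fold changes -8.32, -6.92 and -7.46 after E. coli, after PBS and in controls, edgeR adjusted p = 0.0603, 0.0501 and 0.534).

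In untreated fish ccl19a.1 had 0.163, 0.232, 55.4, 0.105 and 0.0311 CPM in ccl34b.1+ libraries 1 to 5, against 6905, 5100.02, 5149.6, 1252 and 2690.3 CPM in ccl34b.1- libraries 1 to 5. The gates did not overlap, yet the difference did not pass the threshold (log2 fold change -8.55 ± 2.39, 95% interval -13.92 to -3.18; edgeR adjusted p = 0.117, n = 5 and 5). DESeq2 called it (-8.57, adjusted p = 4.21e-06), as did the edgeR fit of all 28 libraries (-8.56, adjusted p = 0.00377). The spread came from ccl34b.1+ library 3, which held 1715 of the group's 1729 counts (99.2%), while the other 4 libraries held 14 counts together. Without it the log2 fold change was -14.89 ± 0.83 (edgeR adjusted p = 4.43e-07), and the 4 remaining libraries averaged 0.133 ± 0.0855 CPM (SD, n = 4), or 0.00315% of the ccl34b.1- mean.

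The genes that otherwise followed ccl19a.1 had few counts in library 3. siglec15l, a sialic acid-binding lectin gene whose level was most like that of ccl19a.1, had 3, 4, 9, 5 and 0 counts in untreated ccl34b.1+ libraries 1 to 5. It averaged 0.150 CPM there, against 1592 CPM in ccl34b.1- libraries. ACTN1 and SYNGR3, next in likeness, had 0 counts in library 3, and CNN3 and IQSEC1 had 1 and 2. ccl35.1 and ccl35.2 were each at their highest of the group in library 3, at 1120.3 and 253 CPM. A mixture of cells, carry-over between libraries and expression in ccl34b.1+ cells were not tested as sources of these counts.

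Among ccl34b.1+ libraries of the injection experiment the low ccl19a.1 level of ccl34b.1+ cells was more even. It was 0.312% of the ccl34b.1- mean after E. coli, 0.827% after PBS and 0.566% in controls, and 0.265% in untreated fish with library 3 included. For siglec15l the same shares were 0.4926% after E. coli, 0.326% after PBS, 0.452% in controls and 0.00941% in untreated fish. By group mean both genes thus stood under 1% of their ccl34b.1- mean in ccl34b.1+ cells of injected and control fish. The mean of siglec15l was lower again in untreated fish. For ccl19a.1, PBS ccl34b.1+ library 2 alone was above 1% in the injection experiment, at 85.7 CPM against a ccl34b.1- mean of 6610 CPM. Untreated ccl34b.1+ library 3 stood at 1.31% of its ccl34b.1- mean. Whether these counts come from cells or RNA of the other gate was not tested.

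**Figure D2:**
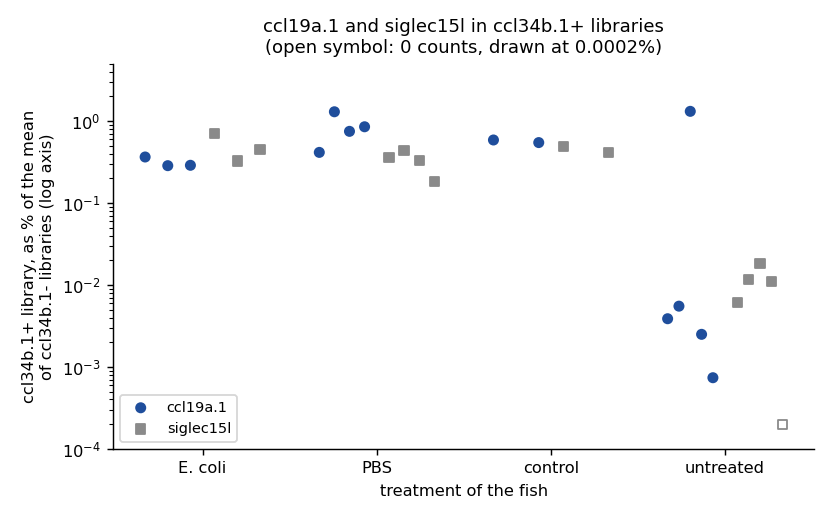
Level of ccl19a.1 (blue circles) and siglec15l (grey squares) in each ccl34b.1+ library as a percentage of the mean of the ccl34b.1- libraries of the same treatment (log axis). In the injection experiment the ccl34b.1+ group means of both genes are under 1%. The ccl19a.1 point of PBS library 2 is above 1% (85.7 CPM against a ccl34b.1- mean of 6610 CPM). In untreated fish 1 ccl19a.1 point stands at 1.31%, far above siglec15l of the same library. The open square marks 0 counts.

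The ccl35 genes also separated the gates, by smaller folds than ccl19a.1. After E. coli ccl35.1 had 435, 357 and 198 CPM in ccl34b.1+ libraries, against 7571, 3434 and 5338 CPM in ccl34b.1- libraries. ccl35.2 had 26.9, 63.9 and 32.5 CPM in ccl34b.1+ libraries, against 1604, 919 and 1075 CPM in ccl34b.1- libraries. For both genes ccl34b.1- library 1 was highest, and neither gene's gates overlapped. ccl35.1 was 16.9-fold lower in ccl34b.1+ cells (log2 fold change -4.08 ± 0.45, edgeR adjusted p = 3.40e-07) and ccl35.2 29.9-fold lower (-4.90 ± 0.59, edgeR adjusted p = 2.13e-06). With ccl19a.1, all 3 genes were thus called lower in ccl34b.1+ cells after E. coli, where 1.43% of the 12421 genes tested were called lower and 2.31% in either direction.

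After PBS ccl35.1 had 511, 253, 363 and 324 CPM in ccl34b.1+ libraries 1 to 4, against 2623, 1868, 1665 and 4046 CPM in ccl34b.1- libraries. ccl35.2 had 77.8, 51.1, 44.8 and 52.0 CPM in ccl34b.1+ libraries, against 848, 325, 373 and 1173 CPM in ccl34b.1- libraries. Libraries 1 and 4 were the high ones of the ccl34b.1- group for both genes, and the gates did not overlap. The fitted levels in ccl34b.1+ cells were 6.87-fold lower for ccl35.1 (log2 fold change -2.78 ± 0.36, edgeR adjusted p = 4.56e-06) and 11.8-fold lower for ccl35.2 (-3.56 ± 0.48, edgeR adjusted p = 7.63e-06). All 3 genes were called lower, where 1.48% of genes were called lower and 2.69% in either direction.

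In control fish ccl35.1 had 842 and 1469 CPM in the ccl34b.1+ libraries, against 4265 and 10473 CPM in the ccl34b.1- libraries. ccl35.2 had 129 and 208 CPM in the ccl34b.1+ libraries, against 1104 and 4716 CPM in the ccl34b.1- libraries. The second library of each gate was the higher one for both genes, and the gates did not overlap. ccl35.1 was 6.41-fold lower in ccl34b.1+ cells (log2 fold change -2.68 ± 0.51, edgeR adjusted p = 0.00308) and ccl35.2 17.3-fold lower (-4.12 ± 0.70, edgeR adjusted p = 0.000589). All 3 genes were called lower, where 0.362% of genes were called lower and 0.869% in either direction.

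The control calls of the ccl35 genes rested on few libraries. Without control ccl34b.1- library 2 the log2 fold changes were -1.88 for ccl35.1 and -2.71 for ccl35.2 (edgeR adjusted p = 0.150 and 0.101). Without ccl34b.1- library 1 they were -3.18 and -4.81, both called. Leaving out ccl34b.1+ library 1 also ended the call of ccl35.1 (-2.33, edgeR adjusted p = 0.101), and a fit of the 4 control libraries alone called neither ccl35.1 (-2.68, adjusted p = 0.107) nor ccl35.2 (-4.11, adjusted p = 0.0922).

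In untreated fish ccl35.1 had 735, 499, 1120.3, 583 and 908 CPM in ccl34b.1+ libraries 1 to 5, against 2643, 1685, 1971, 1939.9 and 1804 CPM in ccl34b.1- libraries 1 to 5. ccl35.2 had 181, 117, 253, 125 and 196 CPM in ccl34b.1+ libraries, against 1122, 999, 526, 794 and 821 CPM in ccl34b.1- libraries. Library 3 was the highest of the ccl34b.1+ group for both genes and the lowest of the ccl34b.1- group for ccl35.2. ccl35.1 was 2.57-fold lower in ccl34b.1+ cells (log2 fold change -1.36 ± 0.25, edgeR adjusted p = 0.00515) and ccl35.2 4.79-fold lower (-2.26 ± 0.31, edgeR adjusted p = 0.000518). These were 2 of the 3 genes, where 1.61% of the 8658 genes tested were called lower and 3.71% in either direction, and both calls held without any 1 library.

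E. coli fish were compared with PBS fish within each gate, which sets the bacteria against the buffer. In ccl34b.1- cells, E. coli fish had higher mean levels than PBS fish of all 3 genes, at 10800.4 ± 4775 against 6609.97 ± 1144 CPM for ccl19a.1 (SD, n = 3 and 4). The means were 5448 ± 2071 against 2551 ± 1079 CPM for ccl35.1, and 1199.5 ± 359 against 679.8 ± 405 CPM for ccl35.2. The groups overlapped for each gene: 1 of 3 E. coli libraries was above all PBS libraries for ccl19a.1 and ccl35.2, and 2 of 3 were for ccl35.1.

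None of the 3 passed in that comparison, in which 0.403% of genes were called in either direction, 0.233% higher and 0.169% lower. The log2 fold change was 0.78 ± 0.33 for ccl19a.1 (95% interval 0.12 to 1.44, edgeR adjusted p = 0.235), 1.17 ± 0.37 for ccl35.1 (0.42 to 1.91, edgeR adjusted p = 0.176) and 0.89 ± 0.47 for ccl35.2 (-0.06 to 1.84, edgeR adjusted p = 0.281). Without E. coli ccl34b.1- library 1 the value of ccl19a.1 was 0.33. The median over all genes was -0.08, and it was -0.29 with DESeq2 size factors, a scaling under which 40.0% of called genes were higher, against 58.0% with TMM scaling. Set against control fish in place of PBS fish, the values for the ccl35 genes changed sign (-0.41 for ccl35.1 and -1.25 for ccl35.2, edgeR adjusted p = 0.783 and 0.361). Neutrophil markers differed between these libraries, with summed levels of 0.409, 565 and 51.7 CPM in ccl34b.1- libraries 1 to 3 after E. coli, against 0 to 0.124 CPM after PBS. Most of this was mmp13a, at up to 537 CPM after E. coli, while npsn reached 28.4 CPM and lyz was at 0 in all 28 libraries. The summed B cell markers were 3.47, 271 and 28.5 CPM in the same libraries, against 89.1 to 257 CPM after PBS. Here cd22 made up to 256 CPM after E. coli, with means of 95.6 CPM after E. coli and 48.6 CPM after PBS. The mean of cd79a was also higher after E. coli (3.97 and 0.502 CPM). Lower means after E. coli were those of ighm (0.417 and 76.2 CPM), cd79b (0.917 and 5.21 CPM) and PAX5 (0 and 11.1 CPM). After PBS, PAX5 ran from 0 to 44.5 CPM. The dendritic cell sum was 1021 to 4024 CPM after E. coli and 1229 to 2507 CPM after PBS, and the part of these cells in the chemokine levels was not tested.

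In ccl34b.1+ cells, the E. coli and PBS means were 33.7 ± 4.82 and 54.7 ± 24.1 CPM for ccl19a.1, 330.2 ± 121 and 363 ± 109 CPM for ccl35.1, and 41.1 ± 20.0 and 56.4 ± 14.6 CPM for ccl35.2. The libraries overlapped for each gene. The log2 fold changes were -0.70 ± 0.34, -0.14 ± 0.37 and -0.46 ± 0.48 in the same order of genes (edgeR adjusted p = 0.307, 0.995 and 0.774), where 1.51% of genes were called in either direction, 0.700% higher and 0.813% lower. The value of ccl35.1 was 0.13 without E. coli ccl34b.1+ library 3. The summed microglia markers of these ccl34b.1+ libraries were 5234 to 9404 CPM after E. coli and 52333 to 76176 CPM after PBS. Among them SLC7A7 (688 and 367 CPM) and csf1ra (157 and 112 CPM) had higher means after E. coli, and the rest had lower ones. The 2 matched macrophage markers summed to 2056 to 2848 CPM after E. coli and 467 to 734 CPM after PBS, mostly marco. The dendritic cell markers summed to 285 to 631 CPM and 786 to 1344 CPM. Of these, cd83 averaged 167 CPM after E. coli and 691 CPM after PBS. BATF3 (30.8 and 5.02 CPM) and irf4b (0.533 and 0 CPM) had higher means after E. coli. The B cell list, nearly all cd22 here, summed to 439 to 904 CPM after E. coli and 57.8 to 201 CPM after PBS. MPEG1 (ENSDARG00000055290), a gene with the name of the red reporter's promoter, averaged 128.5 CPM after E. coli and 798 CPM after PBS in these libraries. Of the other genes of that name, ENSDARG00000043093 had 11.5, 0 and 2.48 CPM in E. coli libraries 1 to 3 and 0 CPM after PBS. ENSDARG00000078569 had 0 CPM in both. The part of all these in the chemokine levels was not tested. Set against control fish, ccl35.1 was lower after E. coli in ccl34b.1+ cells (-1.81, edgeR adjusted p = 0.0218), where 0.910% of genes were called lower and 1.22% in either direction. The same comparison gave -2.04 for ccl35.2 and -0.52 for ccl19a.1 (edgeR adjusted p = 0.0681 and 0.611).

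The E. coli response was also compared between the gates. The difference of the 2 responses (ccl34b.1+ minus ccl34b.1-) was -1.48 ± 0.47 on the log2 scale for ccl19a.1 (95% interval -2.43 to -0.53), -1.30 ± 0.52 for ccl35.1 (-2.36 to -0.24) and -1.34 ± 0.67 for ccl35.2 (-2.71 to 0.02). Adjusted over all genes, the edgeR p-values were 0.205, 0.262 and 0.363 (unadjusted 0.00338, 0.0180 and 0.0530). No gene of the 3 passed, where 0.274% of genes were called in either direction (0.129% positive and 0.145% negative). With DESeq2 size factors the 3 values were -1.28, -1.11 and -1.16, the median of all genes moved by 0.20, and the share of called genes that were positive was 62.1%, against 47.1% with TMM scaling.

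PBS fish were also compared with control fish, for which the labels give no treatment. The ccl35 genes had lower means after PBS in both gates. In ccl34b.1- cells ccl35.1 averaged 2551 ± 1079 CPM after PBS against 7369 ± 4389.8 CPM in controls (SD, n = 4 and 2), with no overlap. ccl35.2 averaged 679.8 ± 405 CPM after PBS against 2909.7 ± 2554 CPM in controls, with 3 of 4 PBS libraries below both controls. In ccl34b.1+ cells ccl35.1 averaged 363 ± 109 CPM after PBS against 1155 ± 443 CPM in controls, and ccl35.2 averaged 56.4 ± 14.6 CPM against 169 ± 55.9 CPM, neither with overlap. How many of all genes lacked overlap with the 2 control libraries of a gate was not counted.

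These differences did not pass over the whole table. In ccl34b.1- cells the log2 fold change was -1.57 ± 0.40 for ccl35.1 (edgeR adjusted p = 0.677, unadjusted 0.000436) and -2.13 ± 0.51 for ccl35.2 (edgeR adjusted p = 0.442, unadjusted 0.000214). In ccl34b.1+ cells it was -1.67 ± 0.40 for ccl35.1 (edgeR adjusted p = 0.446, unadjusted 0.000215) and -1.58 ± 0.51 for ccl35.2 (edgeR adjusted p = 0.965, unadjusted 0.00430). edgeR called 0 of 12421 genes (0%) in either gate, with 642 genes in ccl34b.1- and 628 in ccl34b.1+ cells at an unadjusted p under 0.05, and DESeq2 called 127 and 82. DESeq2 called ccl35.2 in ccl34b.1- cells (-2.20, adjusted p = 0.0366), and without a filter on low counts edgeR called ccl35.1 in ccl34b.1+ cells (-1.67, adjusted p = 0.00650). The values in ccl34b.1- cells were -0.78 for ccl35.1 and -0.73 for ccl35.2 without control ccl34b.1- library 2, and -2.07 and -2.83 without control ccl34b.1- library 1, none of them called.

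ccl19a.1 did not share this pattern of means. It averaged 6609.97 ± 1144 CPM after PBS against 8513 ± 4334 CPM in controls in ccl34b.1- cells, and 54.7 ± 24.1 against 48.2 ± 2.48 CPM in ccl34b.1+ cells. The libraries overlapped in both gates (log2 fold changes -0.40 ± 0.37 and 0.18 ± 0.38, edgeR adjusted p = 1 for both). Their signs turned without control ccl34b.1- library 1 (0.25) and without PBS ccl34b.1+ library 2 (-0.11). The difference between the gates in the PBS response was 0.59 ± 0.53 for ccl19a.1, -0.10 ± 0.59 for ccl35.1 and 0.55 ± 0.76 for ccl35.2 (edgeR adjusted p = 1.00 for each). These signs turned as well, without control ccl34b.1- library 1 for ccl19a.1 (-0.065) and ccl35.1 (0.40), and without control ccl34b.1- library 2 for ccl35.2 (-0.85). edgeR called 0 genes (0%) there, with 524 at an unadjusted p under 0.05, and DESeq2 called 97.

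**Figure D3:**
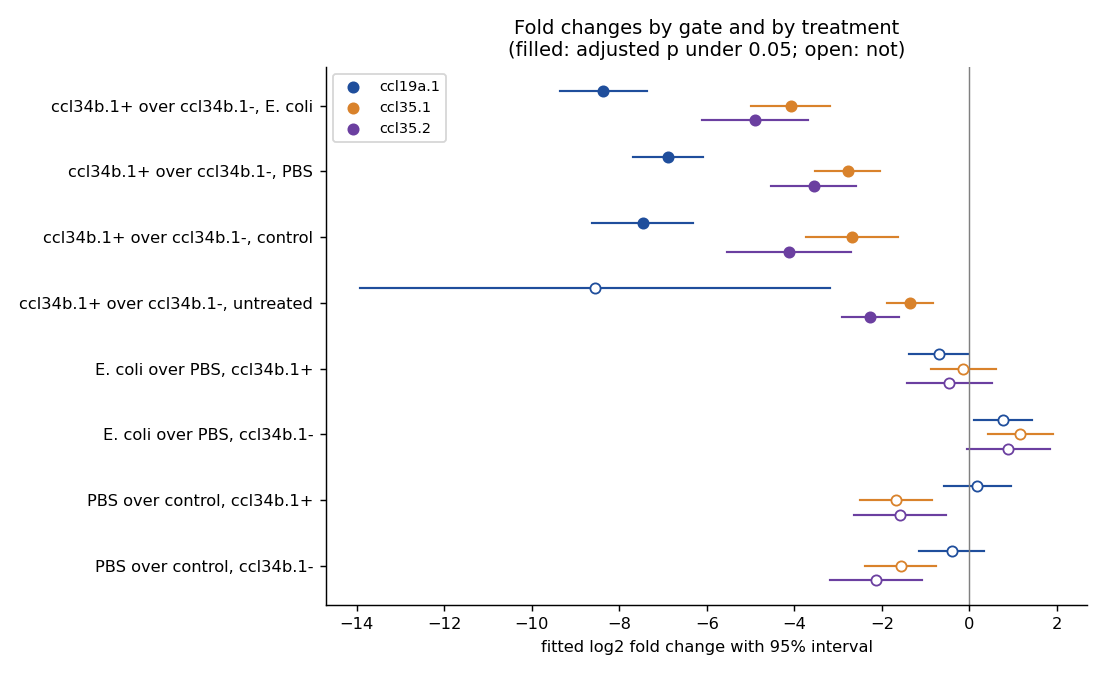
Fitted log2 fold changes with 95% intervals for ccl19a.1, ccl35.1 and ccl35.2, with the gate comparisons above and the treatment comparisons below; filled points passed an edgeR adjusted p of 0.05. The gate differences run from -8.55 to -1.36 and all are filled but ccl19a.1 in untreated fish, while no treatment comparison is filled.

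The share of ccl35.2 in the ccl35 counts of a library does not depend on library scaling, and was described without a test. ccl35.2 took 5.81 to 15.2% in ccl34b.1+ and 16.8 to 21.1% in ccl34b.1- libraries after E. coli. It took 11.0015 to 16.8% and 14.8 to 24.4% after PBS, 12.4 to 13.3% and 20.6 to 31.0% in controls, and 17.7 to 19.7% and 21.1 to 37.2% in untreated fish, with ccl34b.1+ libraries first. The gates overlapped after PBS and did not overlap in the other 3 treatments. The lowest share, in E. coli ccl34b.1+ library 1, rested on 110 of 1892 counts (exact 95% binomial interval 4.80 to 6.97%). Reads that fit both paralogs could move this share, and how the authors' counting treated them is not given in the sources used here. In the supplied RefSeq table (GRCz12tu, another assembly) both genes lie on 1 chromosome, with 335 annotated genes between them. With their counts summed into 1 gene, the gate difference passed in each of the 4 treatments.

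**Figure D4:**
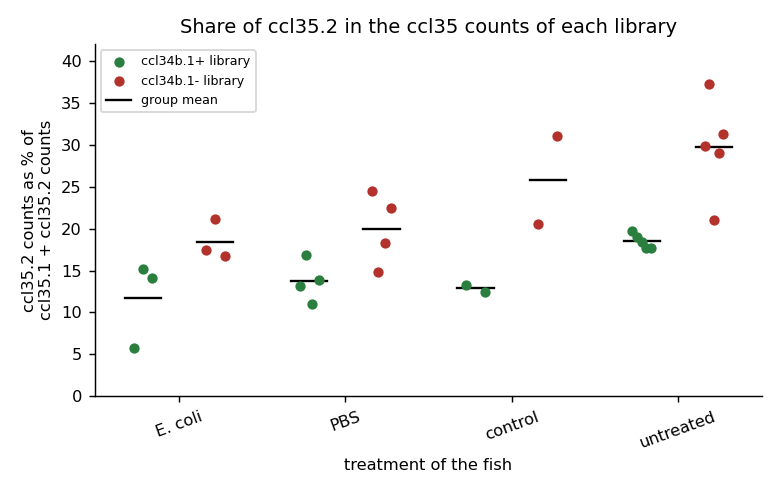
Counts of ccl35.2 as a percentage of the summed ccl35.1 and ccl35.2 counts in each library, by treatment, with ccl34b.1+ libraries in green on the left, ccl34b.1- libraries in red and a bar at each group mean. The group mean is lower in ccl34b.1+ than in ccl34b.1- libraries of all 4 treatments, and the points overlap after PBS.

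Likeness to other genes was measured as Pearson's r of log2(CPM + 1) over the 28 libraries, among 4307 named genes with a mean of at least 20 CPM. The libraries share the gates and treatments, so a high r mostly restates the gate, and the r within the 14 ccl34b.1- libraries is given beside it. For ccl19a.1 the 5 nearest were siglec15l (r = 0.97 over 28 and 0.57 over 14 libraries), the actin crosslinker ACTN1 (ENSDARG00000007219; 0.94 and 0.30), the vesicle protein gene SYNGR3 (0.94 and 0.35), the calponin CNN3 (ENSDARG00000099510; 0.92 and 0.22) and IQSEC1 (ENSDARG00000016551; 0.92 and 0.07), an exchange factor for Arf GTPases. ccl35.1 was most like ccl35.2 (0.96 and 0.83), then the tumor necrosis factor gene tnfb (0.89 and 0.77), the BCL2 family gene bcl2l10 (0.89 and 0.89), SYNGR3 (0.86 and 0.67) and the zinc finger gene ZNF366 (0.85 and 0.28). ccl35.2 was most like ccl35.1, then WIPF1 (ENSDARG00000104300; 0.89 and 0.19), which binds the actin regulator WASP, bcl2l10 (0.88 and 0.66), tnfb (0.88 and 0.78) and ZNF366 (0.87 and 0.28).

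ccl35.1 and ccl35.2 stayed alike within each gate, with r = 0.83 over 14 ccl34b.1- and 0.88 over 14 ccl34b.1+ libraries. ccl19a.1 and ccl35.1 were less alike, at r = 0.77 over all libraries, 0.52 within ccl34b.1- and -0.25 within ccl34b.1+ libraries. For ccl19a.1 and ccl35.2 the values were 0.75, 0.18 and -0.45. Each r within a gate pools the 2 experiments, and r within each experiment was not computed. In ccl34b.1+ cells 4 untreated libraries had 0.0311 to 0.232 CPM of ccl19a.1, against 27.4 to 85.7 CPM in the injection experiment. Their ccl35.2 levels were 117 to 196 CPM, against 26.9 to 208 CPM. Untreated ccl34b.1+ library 3 was the highest of its group for all 3 genes. Among untreated ccl34b.1- libraries, library 4 had the lowest ccl19a.1 level of the group (1252 CPM) but ccl35.1 and ccl35.2 levels inside the range of the others. That library also held the highest summed B cell markers (683 CPM, against 0.0734 to 229 CPM in the other 4) and T cell markers (216 CPM, against 0 to 2.40 CPM; mostly cd8a, with lck and ZAP70 at 0), whose part in its ccl19a.1 level was not tested.

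**Figure D5:**
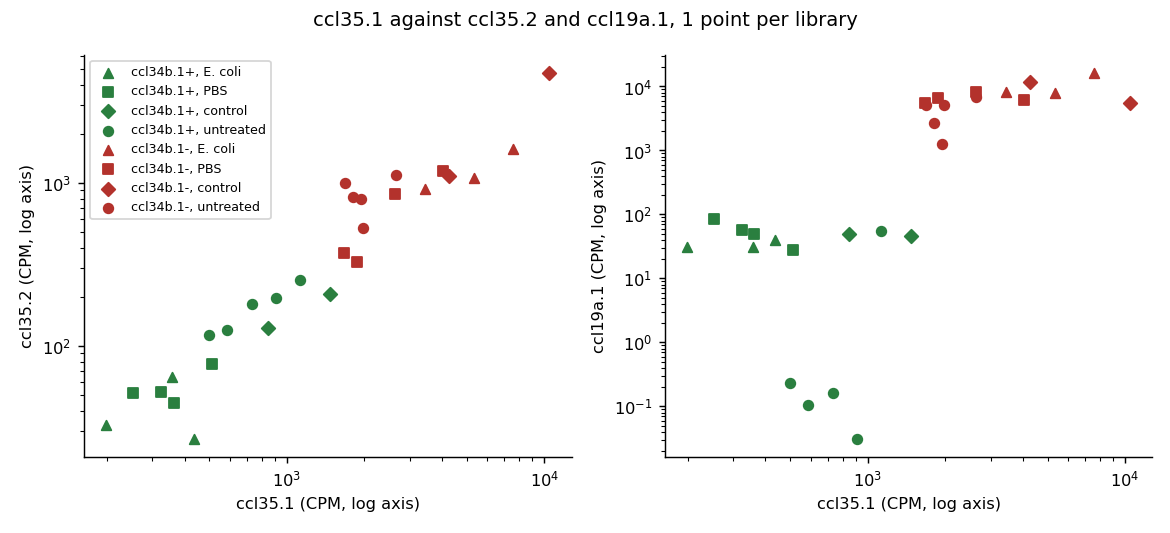
Level of ccl35.2 (left) and ccl19a.1 (right) against the level of ccl35.1, 1 point per library (CPM, log axes), with ccl34b.1+ libraries in green, ccl34b.1- in red and a symbol for each treatment. The 2 ccl35 genes run together in both gates, while ccl19a.1 splits into an upper ccl34b.1- and a lower ccl34b.1+ band.

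ccl19a.1 and ccl35.1 took large shares of the chemokine counts of ccl34b.1- cells. Of all counts of the 52 chemokine ligand genes of the table, ccl19a.1 took 0.354 to 0.590% in ccl34b.1+ and 39.5 to 40.4% in ccl34b.1- libraries after E. coli. It took 0.175 to 0.532% and 45.9 to 65.8% after PBS, 0.414 to 0.589% and 24.9 to 65.4% in controls, and 0.000290 to 0.432% and 26.9 to 58.6% in untreated fish, in the same order of gates. ccl35.1 took 3.76 to 6.63% in ccl34b.1+ and 17.0 to 26.3% in ccl34b.1- libraries after E. coli, 1.12 to 3.90% and 15.1 to 30.7% after PBS, 9.92 to 13.1% and 24.1 to 47.9% in controls, and 5.27 to 9.24% and 17.8 to 41.7% in untreated fish. It exceeded ccl19a.1 in counts in control ccl34b.1- library 2 and untreated ccl34b.1- library 4. These are shares of reads, which also depend on transcript length, so they do not rank the ligands as molecules.

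Its relatives and the receptor of mammalian CCL19 were looked up after their values had been seen. ccl19a.2 averaged 0.0752 CPM in ccl34b.1+ and 80.8 CPM in ccl34b.1- libraries after E. coli, at 182, 7.11 and 53.1 CPM in ccl34b.1- libraries 1 to 3. In ccl34b.1- cells of PBS, control and untreated fish it averaged 5.13, 4.03 and 14.4 CPM. E. coli ccl34b.1- library 1 was thus the highest of its group for both ccl19a genes, and untreated ccl34b.1- library 4, the lowest for ccl19a.1, had 0 counts of ccl19a.2. The RefSeq table places ccl19a.2 within the span of ccl19a.1, so reads of the 2 genes may not be separable. ccl19b and CCR7 (ENSDARG00000044561) had 0 counts in all 28 libraries, where 3 counts in the shallowest library would be 1.34 CPM.

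The calls of the other chemokine ligands went in both directions between the gates in E. coli and PBS fish. Their median fold change was below that of all genes in PBS, control and untreated fish. In ccl34b.1+ cells 2 of 27 tested were called higher and 4 lower in E. coli fish, 4 and 1 in PBS fish, and 1 and 2 in control fish. Of 12 tested in untreated fish, 1 was higher and 0 lower, and this was ccl34b.1, the gene of the sort, which restates the gating. ccl34b.1 was also among the ligands tested in the other treatments, where a higher call of it would restate the gating too. In ccl34b.1+ against ccl34b.1- libraries it averaged 974 against 78.9 CPM after E. coli. The means were 5187 against 85.8 CPM after PBS and 8093 against 125 CPM in controls. Over all genes tested, 0.886% were called higher in E. coli fish, 1.21% in PBS fish, 0.507% in control fish and 2.10% in untreated fish. The median log2 fold change of these other ligands was 0.27 in E. coli, -1.47 in PBS, -2.84 in control and -0.92 in untreated fish, beside -0.10, -0.11, 0.00 and -0.01 over all genes.

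Among them, cxcl11.5 and cxcl11.6, of a group that in mammals draws activated T cells, averaged 12.3 and 7.75 CPM in ccl34b.1+ and 848 and 736 CPM in ccl34b.1- libraries after E. coli. cxcl8b.1, named after a neutrophil attractant, went the other way after PBS, at 286 CPM in ccl34b.1+ and 0.523 CPM in ccl34b.1- libraries. E. coli against PBS called 6 of 27 other ligands higher in ccl34b.1- cells (over all genes 0.233% higher and 0.169% lower) and 3 in ccl34b.1+ cells (0.700% and 0.813%), with 0 lower in either. By the smallest adjusted p these were cxcl11.5, cxcl11.6 and cxcl11.7 in ccl34b.1- cells, at 848, 736 and 1082 CPM after E. coli and 5.58, 9.97 and 20.0 CPM after PBS. In ccl34b.1+ cells they were cxcl8a, cxcl11.1 and cxcl11.7, at 1982, 773 and 41.2 CPM after E. coli and 41.96, 3.42 and 3.56 CPM after PBS. ccl19a.1, ccl35.1 and ccl35.2 had no such call in either gate.

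Of the chemokine receptors, 1 of 12 tested in untreated fish was higher and 3 were lower in ccl34b.1+ cells (over all genes 2.10% and 1.61%), among them CXCR4 (ENSDARG00000057633), at 0.00701 CPM in ccl34b.1+ against 207 CPM in ccl34b.1- libraries. The other gene of that name, ENSDARG00000041959, named here after its values were seen, averaged 1993 CPM in ccl34b.1+ and 2279 CPM in ccl34b.1- libraries and was not called. In the injection experiment 2 of 17 receptors were lower after E. coli and 1 each after PBS and in controls, where 1.43%, 1.48% and 0.362% of all genes were lower, and none was higher. XCR1 (ENSDARG00000054847), named after a receptor of cross-presenting dendritic cells in mammals, was lower in all 3 of these treatments. In ccl34b.1+ against ccl34b.1- cells it averaged 0.480 against 46.6 CPM after E. coli, 2.98 against 314 CPM after PBS and 8.70 against 451 CPM in controls. Its untreated libraries overlapped between the gates, at 0.0323 to 67.0 against 0 to 281 CPM. The other gene named XCR1, ENSDARG00000052988, was low, and is named here after its values were seen. Its means were 0 against 4.30 CPM after E. coli, 0.0884 against 5.53 CPM after PBS and 0 against 28.8 CPM in controls.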

How the data were processed

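Reads from 14 fish and 28 libraries had been counted per gene. The deposited values are the authors' whole-number counts per Ensembl gene, with columns tied to samples through the titles. The build was GRCz11 (danRer11) and the tools were STAR, featureCounts and DESeq2, per the submitters' processing notes. Versions, annotation, strandedness and the counting of multi-mapped reads are not given in the sources used here. Per the labels, Smart-seq2 cDNA had 24 PCR cycles and the tagmented library 12 more, without molecular identifiers. The exact binomial interval of the ccl35.2 share and the floor for genes without counts thus cover counting error only. Intervals of log2 fold changes come from the edgeR fits, which also take in the spread between libraries. Sorting gave 3 technical replicates per fish and gate, of which 1 with suitable cDNA went on to sequencing. Groups consist of separate fish, and no 2 libraries were near-duplicates.

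R 4.3.3 and edgeR 4.0.16 were used for all comparisons (TMM, filterByExpr, robust glmQLFit and glmQLFTest, two-sided). P-values were adjusted by Benjamini-Hochberg over all genes tested, the threshold was 0.05, and an adjusted p is edgeR's unless DESeq2 or limma is named. The 10 untreated libraries were fitted alone, and the 18 of the injection experiment as 6 groups. Levels are CPM from the counts and TMM-scaled totals over all 28 libraries; ± is SD for levels and SE for log2 fold changes. The fits were also run on simulated counts, whose outcome is not given here and on which no result rests. Alternatives were DESeq2 1.42.0, its size factors, no filter, other library sets, other comparators, summed ccl35 counts, the replicate number as a block (edgeR, and limma 3.58.1) and leaving out each library.

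Named genes are the 3 members, the 5 genes most like each, and in each comparison up to 3 called chemokine ligands or receptors by adjusted p. ccl19a.2, ccl19b and CCR7 were added with their values known. Of 65 cell type markers asked for, 42 were matched by name. The genes and lists were chosen with earlier results of these data known. A planned look at protein and promoter sequences was not done, as no sequences were used here. The RefSeq table, of another assembly, served for synonyms and neighbours only.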

Additional observations from a re-analysis of the deposited data

Results flagged for a closer look

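Of 12 sets of 4 or 5 libraries (3 genes in 4 groups) checked for a sample far from the others, 1 stood out: ccl19a.1 in untreated ccl34b.1+ library 3, at 55.4 CPM, against 0.0311 to 0.232 CPM in the other 4 libraries. The gap to the next library took nearly the whole range of the group. For normally distributed values about 1 in 20 groups passes the cutoff that was used. This is not the chance of a gap of this size, and levels near 0 need not be normally distributed. The same library did not stand out in this way for ccl35.1 or ccl35.2, at 1120.3 and 253 CPM. The source of the ccl19a.1 counts was not tested.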

How the results depend on the processing

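Over 455 alternative settings of the log2 fold changes of the 3 genes, 440 kept the direction and 425 also kept their side of the threshold. DESeq2 size factors changed no direction and no call. With all 28 libraries in 1 fit, ccl19a.1 passed in untreated fish (-8.56) and did not pass in E. coli (-8.32), PBS (-6.92) or control fish (-7.46). DESeq2 called ccl19a.1 in untreated fish (-8.57) and ccl35.2 for PBS over control in ccl34b.1- cells (-2.20), and without a filter ccl35.1 passed for PBS over control in ccl34b.1+ cells (-1.67). With only the control libraries, the gate differences of ccl35.1 (-2.68) and ccl35.2 (-4.11) did not pass. With control in place of PBS fish, the E. coli difference was -0.41 for ccl35.1 and -1.25 for ccl35.2 in ccl34b.1- cells, both turned, and -1.81 for ccl35.1 in ccl34b.1+ cells, which passed. The summed ccl35 genes gave 0.051 for the PBS response between gates, where ccl35.1 alone was negative. Leaving out 1 library gave -14.89 to -8.16 for ccl19a.1 between gates in untreated fish, and in control fish -3.18 to -1.88 for ccl35.1 and -4.81 to -2.71 for ccl35.2. It gave -0.38 to 0.13 for ccl35.1 in E. coli over PBS in ccl34b.1+ cells. For PBS over control ccl19a.1 ran from -0.84 to 0.25 in ccl34b.1- and from -0.11 to 0.39 in ccl34b.1+ cells. The PBS response between gates ran from -0.065 to 1.02 for ccl19a.1, from -0.90 to 0.40 for ccl35.1 and from -0.85 to 1.24 for ccl35.2. Causes of these changes were not tested, and groups of 2 control fish limit every comparison that uses them. The unscaled totals moved the mean ccl19a.1 level of control ccl34b.1+ cells to 34.6 CPM, against 48.2 CPM.

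Each fish gave both gates, but no label ties a replicate number to a fish, so the numbers were not taken as pairs. Same-numbered libraries correlated at 0.00491 to 0.0395 in their deviations, which does not decide whether a number stands for a fish. The main fits thus treat the 2 gates of a fish as separate. All untreated, control and E. coli libraries matched best with their own number, and not all PBS libraries did. With 2 control libraries per gate the deviations mirror each other, so the control matches are not separate results. As a fixed replicate block the number gave -13.75 for ccl19a.1 in untreated fish (edgeR adjusted p = 0.0602) and changed no call of the 3 genes. The planned voom fit with a random replicate block gave 1.296 for ccl19a.1 in E. coli over PBS in ccl34b.1- cells, which passed. It turned ccl19a.1 in ccl34b.1+ cells to 1.55 for E. coli over PBS and to -0.15 for PBS over control, with SEs of 73.9 and 87.6. Its weights for ccl19a.1 ran from 0.386 to 2139530, beside a median of 0.194 over all genes, and a limma-trend fit added after seeing this changed no call of the 3 genes.

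Counts of called genes moved by over 1.5 times in several settings. Without a filter they were 175 in control and 472 in E. coli fish between gates, 178 and 284 for E. coli over PBS in ccl34b.1- and ccl34b.1+ cells, 13 and 21 for PBS over control, and 146 and 11 for the E. coli and PBS responses between gates. DESeq2 gave 584, 454, 1094 and 1589 between gates (untreated, control, PBS, E. coli), then 1177, 974, 127, 82, 595 and 97. The fit of all libraries gave 782, 50, 196 and 160 between gates, 18 and 125 for E. coli over PBS and 11 for the E. coli response between gates. Fits of the compared groups gave 112 between gates in E. coli fish, 9 and 320 for E. coli over PBS and 3 for PBS over control in ccl34b.1+ cells. The fixed block gave 187 in untreated and 198 in control fish and 105 and 8 between responses, voom gave 507, 406, 6 and 13, and limma-trend 142, 315, 3 and 5. Leaving out 1 library gave 231 to 315 genes in untreated, 38 to 61 in control, 227 to 308 in PBS and 162 to 351 in E. coli fish between gates. It gave 26 to 90 and 101 to 162 for E. coli over PBS, 14 to 55 for the E. coli response between gates, and 0 to 1 for PBS over control.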
